A study of Mus musculus with 4 samples.

Results

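The Toll-like receptor genes *Tlr1*, *Tlr2*, *Tlr4*, *Tlr6*, *Tlr7*, *Tlr8*, *Tlr9* and *Tlr13* were examined together with *Cd14*, the co-receptor for bacterial lipopolysaccharide, and *Myd88*, the adaptor that most Toll-like receptors use. The 10 genes were taken by symbol from the deposited expression table, and all 10 were found among its 23995 symbols. Of the 10, 9 reached an FPKM (fragments scaled by transcript length and by the number of mapped fragments) of at least 1 in at least 1 library, as did 10240 symbols in all. The table holds 4 RNA-seq libraries of sorted mouse blood monocytes, 1 per group, so no value has a replicate error and no test between groups was made. Control Ly6Clo and control Ly6Chi monocytes came from *Rbpj+/+Lyz2*cre/cre mice, which the records title WT and give the genotype Lyz2-Cre. RBP-J-deficient Ly6Clo and Ly6Chi monocytes came from *Rbpjfl/flLyz2*cre/cre mice, recorded as RBP-Jfl/fl Lyz2-Cre. Mice of both genotypes thus carried Cre at both copies of *Lyz2*, a locus active in monocytes, macrophages and neutrophils, so deletion need not be limited to monocytes. Mice in the study were 7 to 12 weeks old, and no treatment is recorded for these samples. How many mice were pooled for a library is not given in the sources used here.

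Toll-like receptors recognize conserved parts of microbes. Those of the cell surface bind lipoproteins (Tlr2 paired with Tlr1 or Tlr6) and lipopolysaccharide (Tlr4 with its partner Ly96, to which Cd14 passes the ligand), whereas Tlr7, Tlr8, Tlr9 and the rodent receptor Tlr13 meet nucleic acids inside endosomes, which they reach with the chaperone Unc93b1. Except for Tlr3, all signal through Myd88 to the Irak kinases and Traf6, and Tlr4 also uses Ticam1. In mouse blood, Ly6Chi monocytes are the inflammatory subset and Ly6Clo monocytes patrol the vessel wall and are known for responses to nucleic acids through Tlr7.

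The deleted gene itself, *Rbpj*, was at 8.30 FPKM in the control and 2.43 in the RBP-J-deficient Ly6Clo library, and at 14.4 and 2.85 in Ly6Chi monocytes. All 6 markers of monocytes at large were at 15.6 FPKM or more in each library. Markers of Ly6Chi monocytes, 6 genes, summed to 113 FPKM in control Ly6Clo, 659 in RBP-J-deficient Ly6Clo, 4820 in control Ly6Chi and 4077 in RBP-J-deficient Ly6Chi monocytes. The 8 Ly6Clo markers summed to 3894, 2089, 590 and 870 in the same order, with *Treml4*, *Cd300e* and *Fcgr4* as the largest terms in both Ly6Clo libraries. In control mice all 8 were at least 2-fold lower in Ly6Chi than in Ly6Clo monocytes, as the labels have it. In RBP-J-deficient mice 2 of the 8 were, and *Nr4a1* (65.6 FPKM in Ly6Clo and 182 in Ly6Chi monocytes), *Ace* (17.7 and 24.7) and *Itgal* (74.2 and 83.6) were higher in Ly6Chi monocytes. The actin gene *Actb*, which every cell uses, reads 0 in the RBP-J-deficient samples of both subsets, so a listed 0 was not taken as absence. Markers of T and NK cells (8 genes) summed to at most 9.08 FPKM, those of conventional dendritic cells to between 31.3 and 197, those of platelets to between 124 and 350.3, and those of red blood cells to 1582 in control Ly6Clo monocytes and to between 276 and 387 elsewhere, and their part in the results was not tested. Read counts are not given, so the depth is unknown. In bulk RNA, fewer cells of a type and less RNA per cell cannot be told apart.

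*Tlr13* and *Tlr7* had the most abundant receptor RNAs, and *Myd88* and *Cd14* were in the same range. In control Ly6Clo monocytes *Tlr13* ranked 591 and *Tlr7* 608 among all symbols by FPKM. *Tlr2* and *Tlr8* were intermediate, *Tlr6*, *Tlr4* and *Tlr1* low, and *Tlr9* was under 1 FPKM throughout. FPKM is scaled by transcript length, so these levels may be set side by side. Their order among receptors, with *Tlr13* first and *Tlr7*, *Tlr2*, *Tlr8* and *Tlr6* following, was shared by the 4 libraries. Below these, *Tlr4* was above *Tlr1* in control Ly6Clo monocytes and below it in the other 3 libraries.

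**Figure D1:**
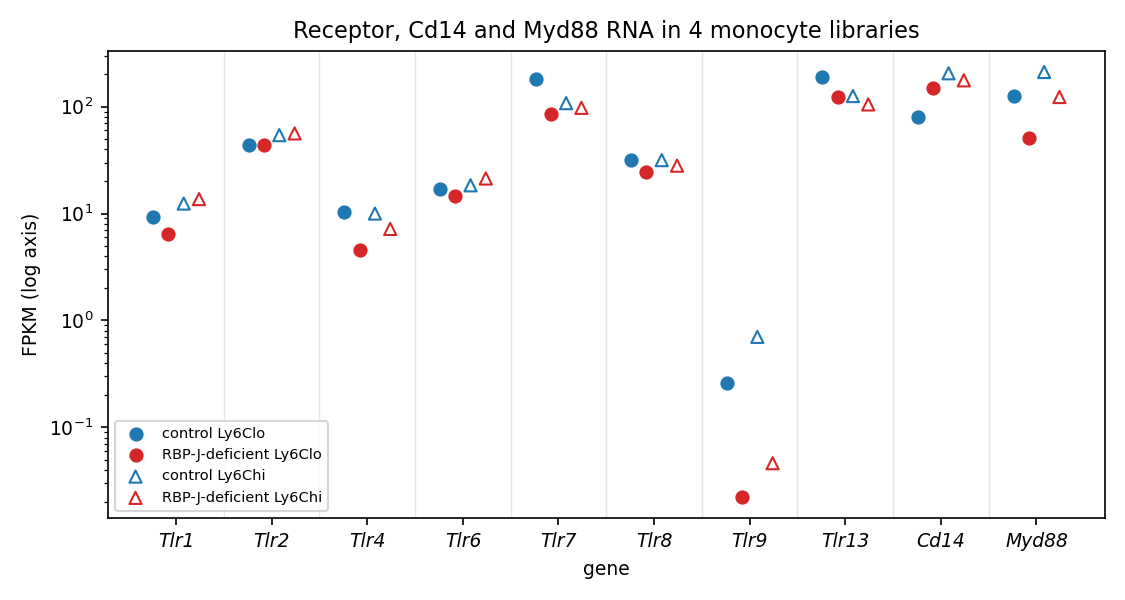
FPKM (log axis) of the 10 genes in the 4 libraries. Circles are Ly6Clo and triangles Ly6Chi monocytes, blue control and red RBP-J-deficient, with 1 library per point and no error bars; the RBP-J-deficient Ly6Clo circle is the lowest point for 7 of the 10 genes, and *Tlr9* lies below 1 in each library.

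The main difference between genotypes was in Ly6Clo monocytes, where *Myd88*, *Tlr7* and *Tlr4* were lower in RBP-J-deficient mice by at least 2-fold on (FPKM + 1). The scale used for all fold values is the log2 ratio of (FPKM + 1), which understates differences of low genes, and a value of 1 or -1 is 2-fold. These 3 of 10 genes compare with 11.1% of the 10240 expressed symbols that were as much lower in this comparison. No member was 2-fold higher, against 8.97% of expressed symbols. The median log2 ratio of the 10 genes was -0.42, beside 0.023 for all expressed symbols. In total 8 of the 10 were below control by any amount, against 48.2% of expressed symbols. Here and below the 10 include *Tlr9*, which is not among the expressed symbols.

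In Ly6Chi monocytes no member differed between genotypes by 2-fold in either direction. Among expressed symbols 2.64% were higher and 4.56% lower by that much. Here 7 of the 10 genes were below control by any amount, against 49.3% of expressed symbols, and the median log2 ratio was -0.19, beside 0.0041. The order of the members depended on the scale. On (FPKM + 1) *Myd88* was lowest in both subsets. The FPKM ratio without a pseudocount was lowest for *Tlr9*, at 0.0869 in Ly6Clo and 0.0658 in Ly6Chi monocytes, against 0.401 and 0.583 for *Myd88*, but *Tlr9* was under 1 FPKM in each library. After the GC correction described below *Tlr7* (-1.52) and *Tlr4* (-1.48) were lower than *Myd88* (-1.11) in Ly6Clo monocytes. For 7 of the 10 genes (*Tlr1*, *Tlr4*, *Tlr6*, *Tlr7*, *Tlr8*, *Tlr9* and *Myd88*) the RBP-J-deficient Ly6Clo library was the lowest of all 4, whereas 32.9% of expressed symbols had their lowest value there. Among the 9 members that are expressed symbols, it was the lowest for 6.

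**Figure D2:**
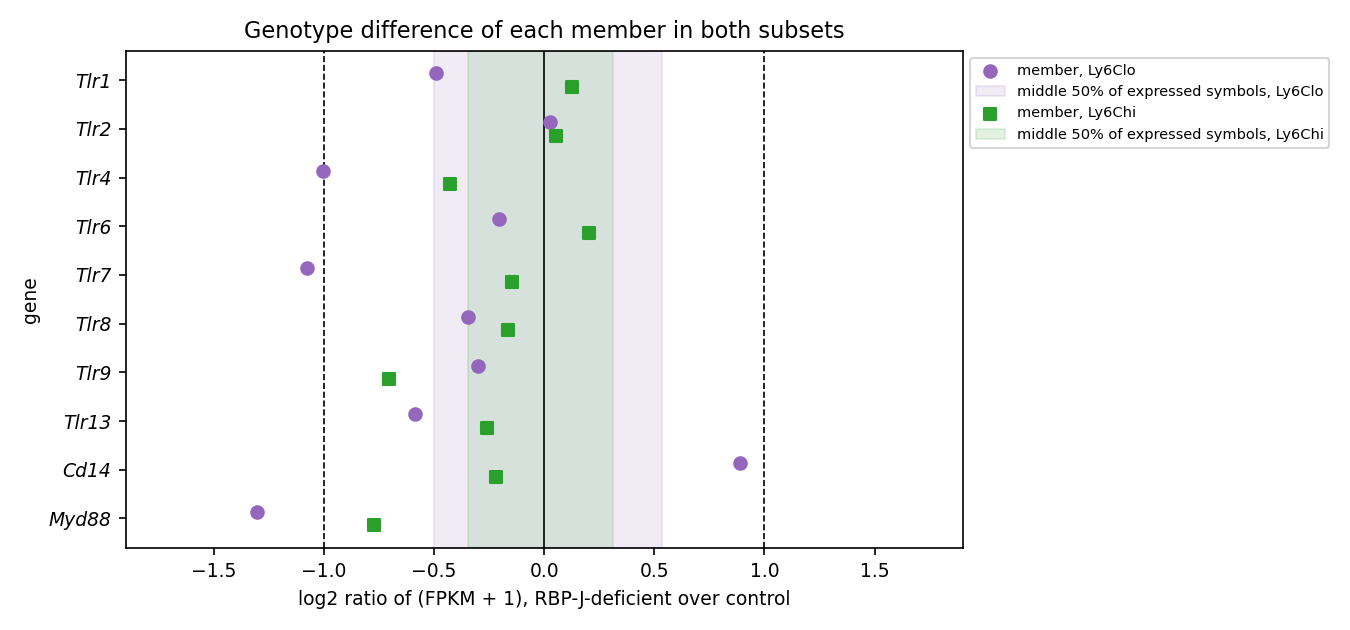
Genotype log2 ratio (RBP-J-deficient to control, FPKM + 1) for each gene in Ly6Clo (purple circles) and Ly6Chi (green squares) monocytes. Shaded bands hold the middle 50% of expressed symbols of each subset and dashed lines mark 2-fold; *Myd88*, *Tlr7* and *Tlr4* lie past the lower line in Ly6Clo monocytes, and *Cd14* is the gene farthest to the right.

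RBP-J binds DNA at sites that hold the letters GTGGGAA, so the windows from 250 bases before to 50 bases after each start site in RefSeq (GRCm38.p6) were searched for GTGGGAA and for TTCCCAC, the same site on the opposite strand. Windows of 7 of the 10 genes were searched, without *Tlr4*, *Tlr7* and *Cd14*. The letters were present for 2 of the 7, *Tlr2* and *Tlr9*, and among all genes with a window 7.25% had them in at least 1. Counted from the start site, the match begins at position -167 in *Tlr2* and at -189 in *Tlr9*, both on the opposite strand. *Myd88* had no match in this window. A match is a description of the sequence and not evidence of binding. A letter string of the myeloid factor PU.1, GAGGAAGT or its reverse complement ACTTCCTC, was found for *Tlr1* and *Tlr9* (3.69% of all genes). The 250 bases before the start site are shown for the genes with an RBP-J match and for *Myd88*, 5′ to 3′ on the strand of the gene, with the RBP-J match in capitals.
Tlr2, chr3:83841609-83841858, minus strand: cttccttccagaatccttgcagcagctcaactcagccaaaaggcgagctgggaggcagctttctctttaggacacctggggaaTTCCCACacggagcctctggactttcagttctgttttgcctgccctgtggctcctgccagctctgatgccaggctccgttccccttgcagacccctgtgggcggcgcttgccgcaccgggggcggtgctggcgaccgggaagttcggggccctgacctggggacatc
Tlr9, chr9:106222348-106222597, plus strand: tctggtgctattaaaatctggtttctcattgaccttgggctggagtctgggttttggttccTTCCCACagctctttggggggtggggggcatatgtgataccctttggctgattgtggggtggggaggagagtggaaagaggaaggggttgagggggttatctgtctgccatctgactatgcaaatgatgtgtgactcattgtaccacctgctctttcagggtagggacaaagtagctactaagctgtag
Myd88, chr9:119340019-119340268, minus strand: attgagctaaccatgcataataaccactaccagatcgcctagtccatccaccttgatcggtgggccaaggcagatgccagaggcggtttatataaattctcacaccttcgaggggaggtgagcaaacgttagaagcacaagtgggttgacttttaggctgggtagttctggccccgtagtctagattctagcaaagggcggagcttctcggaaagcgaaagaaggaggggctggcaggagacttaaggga

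*Myd88* carries the signal of nearly all Toll-like receptors and of the interleukin-1 receptor family. It lies on chromosome 9 of mm10 (119335988 to 119340040, minus strand). Its FPKM was 127 in the control and 50.8 in the RBP-J-deficient Ly6Clo library, and 211 and 123 in Ly6Chi monocytes. Control was thus higher in both subsets, and the Ly6Chi library was higher in both genotypes. The log2 ratio between genotypes was -1.30 in Ly6Clo and -0.77 in Ly6Chi monocytes. In the Ly6Clo comparison 5.94% of expressed symbols had a lower ratio than *Myd88*, and in the Ly6Chi comparison 8.89%. *Myd88* shares 290 of its 2576 exon bases with *Acaa1a*, a peroxisomal thiolase gene on the opposite strand, and whether the libraries kept strand is not stated. *Acaa1a* itself had 62.5 and 45.5 FPKM in control and RBP-J-deficient Ly6Clo monocytes, and 87.1 and 89.9 in Ly6Chi monocytes, and its part in the value of *Myd88* was not tested. Relative to *Tirap*, the adaptor that brings Myd88 to surface receptors and that differed little between libraries, *Myd88* FPKM was 13.4 times as high in control and 5.01 times in RBP-J-deficient Ly6Clo monocytes, and 17.9 and 10.2 times in Ly6Chi monocytes. This ratio is taken within a library and does not depend on scaling between libraries.

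*Tlr4*, the lipopolysaccharide receptor (chromosome 4, 66827811 to 66842796, plus strand), was low in every library. Its FPKM was 10.2 in the control and 4.60 in the RBP-J-deficient Ly6Clo library, and 10.001 and 7.18 in Ly6Chi monocytes. The control libraries of both subsets were nearly level and both RBP-J-deficient libraries lay below them. The log2 ratio was -1.004 in Ly6Clo, just past 2-fold, and -0.43 in Ly6Chi monocytes. With a pseudocount of 5 in place of 1 the Ly6Clo ratio was -0.67, no longer past 2-fold.

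*Cd14* was higher in RBP-J-deficient than in control Ly6Clo monocytes, by less than 2-fold. It encodes the anchored protein that hands lipopolysaccharide to Tlr4 and Ly96 (chromosome 18, 36725067 to 36726654, minus strand). Its FPKM was 79.5 in the control and 148 in the RBP-J-deficient Ly6Clo library, and 205 and 176 in Ly6Chi monocytes. The control Ly6Clo library was the lowest and stood apart from the other 3. The genotype log2 ratio was 0.89 in Ly6Clo and -0.22 in Ly6Chi monocytes. Within a library, *Cd14* FPKM was 7.77 times that of *Tlr4* in control and 32.2 times in RBP-J-deficient Ly6Clo monocytes, and 20.5 and 24.5 times in Ly6Chi monocytes. *Cd14* is higher in Ly6Chi than in Ly6Clo monocytes of control mice, and all 6 Ly6Chi markers were at least 2-fold higher in RBP-J-deficient than in control Ly6Clo monocytes. Of the distance from control Ly6Clo to RBP-J-deficient Ly6Chi monocytes, *Cd14* in RBP-J-deficient Ly6Clo monocytes covered 70.8%, while 5 of the 6 Ly6Chi markers covered between 2.94% and 4.25% and *Ccr2* covered 73.4%.

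Partners of the lipopolysaccharide receptor and of its homolog were divided. *Ly96*, the co-receptor MD-2 that binds lipopolysaccharide beside Tlr4, had 68.4 FPKM in control and 103 in RBP-J-deficient Ly6Clo monocytes, and 91.7 and 86.4 in Ly6Chi monocytes. Its log2 ratio was 0.58 in Ly6Clo and -0.085 in Ly6Chi monocytes, within 2-fold in both. *Ly86*, or MD-1, had 380.1 and 804 FPKM in control and RBP-J-deficient Ly6Clo monocytes, a log2 ratio of 1.08, and 745 and 858 in Ly6Chi monocytes. *Cd180*, the receptor homolog that Ly86 binds, had 16.6 and 11.2 FPKM in Ly6Clo and 9.09 and 12.3 in Ly6Chi monocytes, control first.

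Among the lipoprotein receptors *Tlr2* was nearly level between genotypes as deposited. Tlr2 recognizes bacterial lipoproteins as a pair with Tlr1 or Tlr6, and its gene lies on chromosome 3 (83836272 to 83841608, minus strand). The FPKM was 43.3 in the control and 44.2 in the RBP-J-deficient Ly6Clo library, and 54.1 and 56.1 in Ly6Chi monocytes. Both Ly6Chi libraries were above both Ly6Clo libraries. The genotype log2 ratio was 0.027 in Ly6Clo and 0.052 in Ly6Chi monocytes. After rescaling to TPM, which gives every library the same total and lowers the median Ly6Clo ratio of all expressed symbols from 0.023 to -0.22, the sign in both subsets turned, to -0.27 and -0.048.

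The partners *Tlr1* and *Tlr6* lie beside each other on chromosome 5 (64924680 to 64933558 and 64953095 to 64960034, both on the minus strand). *Tlr1* FPKM was 9.35 in the control and 6.37 in the RBP-J-deficient Ly6Clo library, and 12.4 and 13.7 in Ly6Chi monocytes. *Tlr6* FPKM was 16.9 and 14.6 in Ly6Clo and 18.4 and 21.3 in Ly6Chi monocytes, control first. Both genes were thus lower in RBP-J-deficient Ly6Clo and higher in RBP-J-deficient Ly6Chi monocytes, by less than 2-fold each time. The log2 ratios were -0.49 and 0.13 for *Tlr1* and -0.21 and 0.20 for *Tlr6*, in Ly6Clo and Ly6Chi monocytes. The longest transcripts of the pair share 454 stretches of 50 bases, which is 15.3% of those in *Tlr1* and 12.5% of those in *Tlr6*, so the division of fragments between them is uncertain. Neutrophils also express lipoprotein receptors. Of 8 neutrophil markers 7 were found, and they summed to 238 and 163 FPKM in control and RBP-J-deficient Ly6Clo and to 1329.9 and 1045 in Ly6Chi monocytes, mostly from *S100a8*, which Ly6Chi monocytes express too. In Ly6Chi monocytes *S100a8*, *S100a9*, *Retnlg*, *Cxcr2* and *Mmp9* were lower in RBP-J-deficient mice (log2 ratios from -0.75 to -0.33), and *Camp* and *Ngp*, genes of neutrophil granules, were listed at 0 in control and at 5.52 and 4.87 FPKM in RBP-J-deficient mice. In Ly6Clo monocytes *S100a8*, *S100a9*, *Cxcr2* and *Mmp9* were lower in RBP-J-deficient mice (log2 ratios from -0.64 to -0.29). There *Retnlg* was higher (4.33 and 12.2 FPKM, control first), *Ngp* was at 0 and 0.185, and *Camp* was listed at 0 in both genotypes. The part of neutrophils in these values was not tested.

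*Tlr7*, the endosomal receptor for single-stranded RNA, was past 2-fold between genotypes in Ly6Clo monocytes. It lies on chromosome X (167304926 to 167330571, minus strand). The FPKM was 181 in the control and 85.2 in the RBP-J-deficient Ly6Clo library, and 108 and 97.4 in Ly6Chi monocytes. Control Ly6Clo monocytes stood above the other 3 libraries, and the RBP-J-deficient Ly6Clo library was below both Ly6Chi libraries. The genotype log2 ratio was -1.08 in Ly6Clo and -0.14 in Ly6Chi monocytes, a difference of 0.93 that is above that of 91.0% of expressed symbols. B cells and plasmacytoid dendritic cells also express *Tlr7*. Of 7 B cell markers 6 were found, and they summed to 68.0 and 102 FPKM in control and RBP-J-deficient Ly6Clo and 26.2 and 47.2 in Ly6Chi monocytes. *Cd79a*, *Ms4a1* and *Cd22* were lower in RBP-J-deficient Ly6Clo monocytes (*Cd79a* 9.02 in control and 1.13), *Cd79b* was higher (41.9 and 100.2), and *Pax5* was at 0 in 3 libraries. The 6 markers of plasmacytoid dendritic cells summed to between 158 and 290.3 FPKM, mostly from *Bst2*, and the defining *Siglech* was at 0.138 in control Ly6Clo monocytes and at 0 elsewhere. The part of B cells in the value of *Tlr7* was not tested.

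*Tlr13*, which senses bacterial ribosomal RNA, had the highest receptor level in every library (chromosome X, 106143275 to 106160493, plus strand). Its FPKM was 187 in the control and 124 in the RBP-J-deficient Ly6Clo library, and 126 and 105 in Ly6Chi monocytes. Control Ly6Clo monocytes again stood above the other 3 libraries. The genotype log2 ratio was -0.59 in Ly6Clo and -0.26 in Ly6Chi monocytes, within 2-fold in both. *Tlr8*, the neighbor of *Tlr7* (chromosome X, 167242732 to 167263788, minus strand), varied little over the 4 libraries. It had 31.4 and 24.5 FPKM in Ly6Clo and 31.6 and 28.1 in Ly6Chi monocytes, control first, and log2 ratios of -0.35 and -0.17. *Tlr7* FPKM was 5.75 times that of *Tlr8* in control Ly6Clo monocytes and between 3.41 and 3.48 times in the other 3 libraries.

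*Tlr9*, the receptor for unmethylated CpG DNA (chromosome 9, 106222598 to 106226876, plus strand), was barely detected. Its FPKM was 0.259 in the control and 0.0225 in the RBP-J-deficient Ly6Clo library, and 0.702 and 0.0462 in Ly6Chi monocytes. Both RBP-J-deficient libraries were below both control libraries. On the (FPKM + 1) scale the log2 ratios were -0.30 and -0.70. With a pseudocount of 0.1 they were -1.55 and -2.46, past 2-fold, so the size depends on the pseudocount, and at an unknown depth such low values cannot be given an error. After subtraction of the trend with transcript GC content described below the Ly6Clo value was 0.044, above 0. That trend was fitted over genes averaging 5 FPKM or more, and *Tlr9* lies far below this. The same subtraction put *Sarm1*, an adaptor gene listed at 0 in each library, at 0.41 in Ly6Clo monocytes. The corrected value therefore does not show whether the genotype difference of *Tlr9* goes with GC content. *Tlr3*, *Tlr5* and *Tlr12* were also under 1 FPKM in each library, and *Tlr11* had 1.23 in control Ly6Chi monocytes and under 1 in the others.

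The receptors for nucleic acids made up most of the receptor RNA. The FPKM of the 8 receptors summed to 480 in control and 304 in RBP-J-deficient Ly6Clo monocytes, and to 361 and 329 in Ly6Chi monocytes. *Tlr7*, *Tlr8*, *Tlr9* and *Tlr13* held 83.3% of this sum in control and 77.1% in RBP-J-deficient Ly6Clo monocytes, and 73.7% and 70.1% in Ly6Chi monocytes. The sum of *Tlr1*, *Tlr2*, *Tlr4* and *Tlr6* was 79.9 and 69.7 in Ly6Clo and 94.9 and 98.3 in Ly6Chi monocytes, control first. *Tlr7* and *Tlr13* alone took 76.7% of the sum in control Ly6Clo monocytes, the highest share of the 4 libraries, and 61.5% in RBP-J-deficient Ly6Chi monocytes, the lowest.

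**Figure D3:**
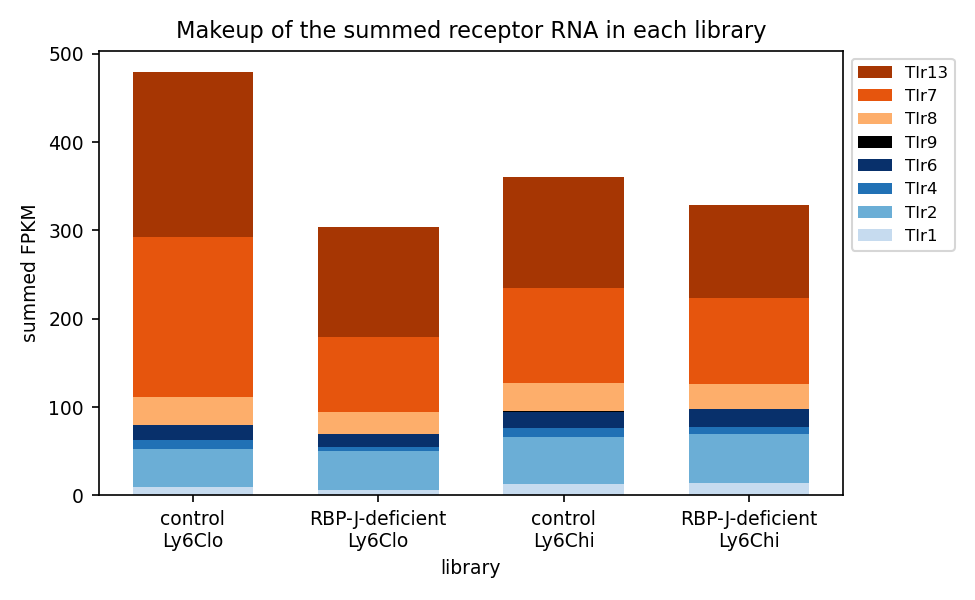
Summed FPKM of the 8 receptor genes in each library (bars from 0, 1 library per bar), with nucleic acid receptors in orange, brown and black and surface receptors in blue. The control Ly6Clo bar is the highest at 480, mainly through *Tlr7* and *Tlr13*, and the RBP-J-deficient Ly6Clo bar is the lowest at 304.

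Between subsets, *Cd14* was past 2-fold in control mice and the other 9 genes were not, with a log2 ratio of 1.36 for Ly6Chi over Ly6Clo monocytes. Of expressed symbols 7.75% were higher and 5.21% lower by that much. *Tlr7* and *Tlr13* were lower in control Ly6Chi monocytes, with log2 ratios of -0.74 and -0.57, and *Myd88* was higher at 0.73. The median of the 10 genes was 0.21, beside 0 for all expressed symbols. In RBP-J-deficient mice *Myd88* was past 2-fold at 1.26, while 10.6% of expressed symbols were higher and 8.41% lower by that much. *Cd14* was at 0.25 there and *Tlr7* at 0.19. *Tlr1* was just short of 2-fold, at 0.99, and past it at 1.09 with a pseudocount of 0.1, 1.01 after median centring, 1.20 in TPM and 1.25 after the GC correction (subtraction of a trend with transcript GC content, described below). In these mice 9 of the 10 genes were higher in Ly6Chi monocytes by any amount, against 48.8% of expressed symbols, *Tlr13* being the exception at -0.24. After the GC correction *Tlr13* was at 0.067 and *Tlr9* went from 0.033 to -0.26. The trend was fitted over genes averaging 5 FPKM or more, so the corrected value of *Tlr9* cannot be relied on. These subset comparisons use the same 4 libraries as the genotype comparisons and are not independent of them.

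Genotype ratios across all genes were lower at higher GC content, and 6 of the 8 receptors lie below the median GC content of expressed symbols, *Tlr2* and *Tlr9* above it. The 10 genes had a median GC content of 45.3% in their longest GENCODE transcript, from 39.4% (*Tlr4*) to 56.2% (*Tlr9*), and expressed symbols a median of 49.2%. Across 6202 genes whose FPKM averaged 5 or more, Spearman's rho between GC content and the Ly6Clo genotype ratio was -0.36, and across 6312 genes it was -0.30 for Ly6Chi monocytes. Genes within a library are not independent replicates, so the rho is a description. Genes with the GC content of *Tlr4* and *Tlr7* had a trend value of 0.48 and 0.44 in Ly6Clo monocytes, whereas *Tlr4* and *Tlr7* lay at -1.004 and -1.08. With that trend subtracted, *Tlr4* was at -1.48 and *Tlr7* at -1.52. *Myd88*, at 53.5% GC, went from -1.30 to -1.11, and *Cd14*, at 52.5%, from 0.89 to 1.02, past 2-fold. The median of the 10 genes in Ly6Clo monocytes was -0.81 after this correction and -0.71 in TPM, against -0.42 as deposited. The median of all expressed symbols was -0.063 after the correction and -0.22 in TPM, against 0.023.

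**Figure D4:**
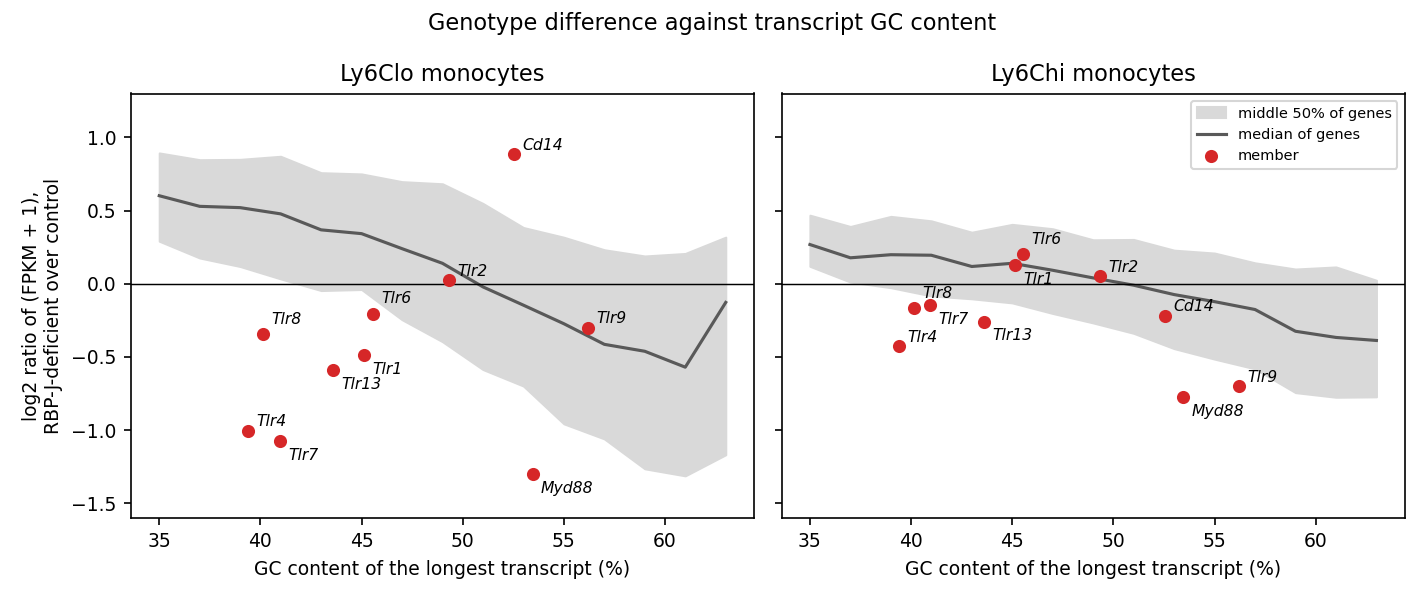
Genotype log2 ratio (RBP-J-deficient to control, FPKM + 1) against the GC content of the longest transcript, for Ly6Clo (left) and Ly6Chi monocytes (right). The line is the median and the band the middle 50% of genes averaging 5 FPKM or more, in bins 2 percentage points wide, and red points are the 10 genes; in Ly6Clo monocytes *Tlr1*, *Tlr4*, *Tlr6*, *Tlr7*, *Tlr8*, *Tlr13* and *Myd88* lie below the band, *Tlr2* and *Tlr9* inside it and *Cd14* above it.

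Other genes of the pathway lay on both sides. Of 78 genes in 8 lists, 76 were found and 65 reached an FPKM of 1 in at least 1 library. In Ly6Clo monocytes 6 of the 65 were higher and 12 lower by 2-fold in RBP-J-deficient mice, beside 8.97% and 11.1% of all expressed symbols, with a median log2 ratio of -0.085. In Ly6Chi monocytes 3 were higher and 4 lower, beside 2.64% and 4.56%, with a median of -0.057. After the GC correction 12 of the 18 in Ly6Clo and 6 of the 7 in Ly6Chi monocytes were still past 2-fold in the same direction. In Ly6Clo monocytes *Slc15a3* (0.70 to 1.13) and *Ikbkg* (-0.84 to -1.18) came past 2-fold with it, for 4 higher and 10 lower. The shares of all expressed symbols after the correction are not given.

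The genes that fold, move and process the receptors included a large difference in *Unc93b1*, which carries the nucleic acid receptors to endosomes. Its FPKM was 182 in the control and 45.9 in the RBP-J-deficient Ly6Clo library, and 383 and 169 in Ly6Chi monocytes. RBP-J-deficient libraries were thus lower in both subsets, with log2 ratios of -1.96 and -1.18, and of -1.56 and -0.95 after the GC correction, which for Ly6Chi monocytes is short of 2-fold. *Cnpy3*, a chaperone that folds Toll-like receptors, was also lower in Ly6Clo monocytes (48.3 and 16.4 FPKM, log2 ratio -1.501), and its relative *Cnpy4* was higher (39.0 and 87.4, log2 ratio 1.14, and 0.97 after the GC correction). Among the proteases that cut endosomal receptors, *Ctsb* was lower in Ly6Clo monocytes (1046 and 353 FPKM, log2 ratio -1.57). *Ctsk*, at a log2 ratio of -1.09, was under 2 FPKM in each library. In this list of 13 expressed genes, 1 was higher and 4 lower in Ly6Clo, and 0 higher and 1 lower in Ly6Chi monocytes, beside 8.97% and 11.1% of all expressed symbols in Ly6Clo and 2.64% and 4.56% in Ly6Chi monocytes.

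Among 4 expressed adaptors, *Pik3ap1*, which links Toll-like receptors to phosphoinositide 3-kinase, had the largest difference of the pathway genes in Ly6Clo monocytes. It had 71.3 FPKM in control and 10.99 in RBP-J-deficient Ly6Clo monocytes, a log2 ratio of -2.59, and 28.6 and 20.1 in Ly6Chi monocytes. Of the B cell markers, *Cd79a*, *Ms4a1* and *Cd22* were also lower in RBP-J-deficient Ly6Clo monocytes, and *Cd79b* was higher. The part of B cells in the value of *Pik3ap1* was not tested. *Tirap*, *Ticam1* and *Ticam2* had log2 ratios of 0.087, -0.030 and -0.20 in Ly6Clo monocytes, well within 2-fold. Of the 21 downstream kinases, ligases and transcription factors, 2 were higher and 3 lower in Ly6Clo, and 1 higher and 0 lower in Ly6Chi monocytes, with the same shares of all expressed symbols. *Irak4*, the kinase that Myd88 recruits first, was higher in both subsets, with 39.7 and 109 FPKM in control and RBP-J-deficient Ly6Clo and 33.3 and 71.1 in Ly6Chi monocytes (log2 ratios 1.43 and 1.07). *Map3k7*, the kinase TAK1, was at 1.45 and 5.52 FPKM in Ly6Clo monocytes (log2 ratio 1.41). The ligase gene *Traf6* was within 2-fold, at -0.69. *Irf7*, *Irf3* and *Irf5*, transcription factors of interferon and cytokine genes, were lower in Ly6Clo monocytes, with log2 ratios of -1.52, -1.34 and -1.05, and after the GC correction *Irf3* and *Irf5* were at -0.97 and -0.73.

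Of 10 expressed inhibitors, 1 was higher and 3 lower in Ly6Clo, and 0 higher and 2 lower in Ly6Chi monocytes, where the shares of all expressed symbols were 8.97% and 11.1%, and 2.64% and 4.56%. *Socs1*, a suppressor of cytokine and Toll-like receptor signals, had 6.05 FPKM in control and 0.962 in RBP-J-deficient Ly6Clo monocytes, and 9.92 and 2.68 in Ly6Chi monocytes (log2 ratios -1.85 and -1.57). *Tollip*, which restrains Irak1, was lower in both subsets, at -1.18 and -1.04. *Tnfaip3*, the deubiquitinase A20, was higher in Ly6Clo monocytes (6.15 and 16.7 FPKM, log2 ratio 1.31). *Sigirr* was lower in Ly6Clo monocytes at -1.06, and at -0.66 after the GC correction. *Irak3*, the kinase-dead Irak-M, was within 2-fold at 0.29 and 0.37. Among the 5 surface co-factors 2, *Ly86* and *Cd36*, were higher and 0 lower in Ly6Clo monocytes, beside 8.97% and 11.1% of all expressed symbols. *Cd36*, a lipid scavenger receptor that assists Tlr2, was higher in Ly6Chi monocytes as well (log2 ratios 1.15 and 2.31). In Ly6Chi monocytes 2.64% of all expressed symbols were higher by 2-fold. After the GC correction the Ly6Clo ratios of *Ly86* and *Cd36* were 0.90 and 0.64.

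**Figure D5:**
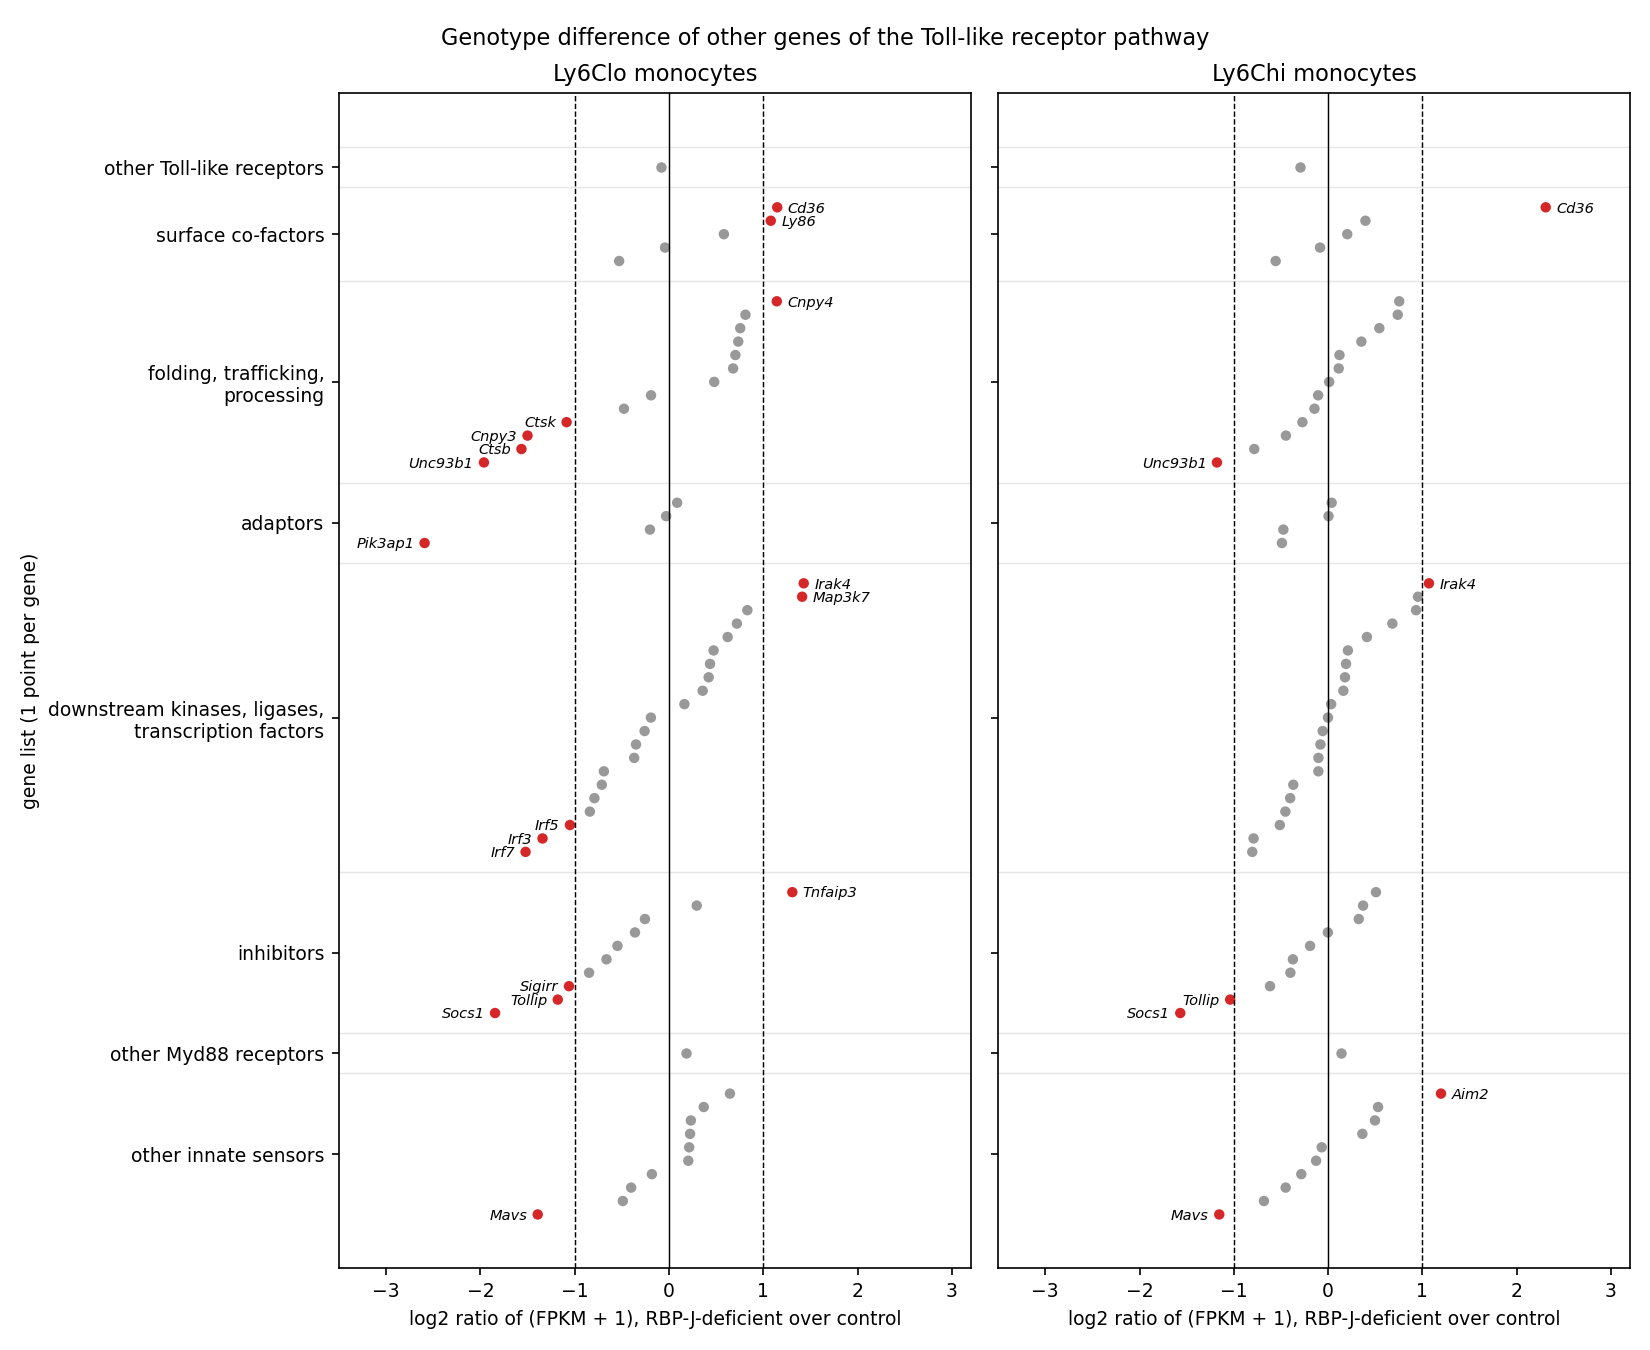
Genotype log2 ratio (RBP-J-deficient to control, FPKM + 1) of the 65 expressed genes of 8 pathway lists, in Ly6Clo (left) and Ly6Chi monocytes (right), 1 point per gene. Named red points are past 2-fold (dashed lines): 6 higher and 12 lower in Ly6Clo, and 3 higher and 4 lower in Ly6Chi monocytes.

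Likeness of pattern was measured as the Euclidean distance between log2(FPKM + 1) values centered on each gene's mean over the 4 libraries. The closest pair among the 10 genes was *Tlr2* and *Tlr6*, at 0.20, and *Tlr7* and *Tlr13* were at 0.38. The most distant pair was *Tlr7* and *Cd14*, at 1.76, which are high in opposite subsets of control mice. On this scale *Myd88* had the widest range over the libraries, 2.03. Among 8188 symbols at an FPKM of at least 1 in each library, the nearest to *Myd88* were *Tifab* at 0.027, *Aldh16a1* at 0.089 and *Pnpla7* at 0.092. *Tifab* had 69.3 and 27.2 FPKM in control and RBP-J-deficient Ly6Clo and 113 and 67.1 in Ly6Chi monocytes. With 4 libraries, many genes share a pattern, and these distances are a description only.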

How the data were processed

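Blood Ly6Chi and Ly6Clo monocytes were sorted from control and RBP-J-deficient mice, and total RNA was sequenced as paired ends. The authors deposited FPKM values for each gene and library. The submitters' processing notes name CASAVA 1.8, TopHat2 2.1.0, Cufflinks 2.2.1 and the build mm10, and the annotation is not given in the sources used here. FPKM is scaled by transcript length and mapped fragments, and whether the values were further normalized between libraries is not given in the sources used here. The deposited columns of fold changes, test statistics, p-values and q-values hold the authors' comparisons and were not used.

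Symbols listed more than once were summed. The log2 ratio of (FPKM + 1) followed the study's fold scale. With 1 library per group no p-value was computed, and counts past 2-fold were set beside those of all symbols that reached an FPKM of 1 in any library. The 10 genes and the lists were chosen with earlier results of these data known. Genes outside the 10 were named where they were always to be reported or past 2-fold between genotypes, at most 6 per list, apart from markers, *Acaa1a* and the genes nearest in pattern. GC content came from the longest GENCODE M21 transcript (98.8% of expressed symbols), and a lowess trend (fraction 0.3, 3 iterations) was fitted over genes averaging 5 FPKM or more. The correction was run on simulated data with a planted straight GC trend and 200 planted changes. It recovered 100% of the changes, against 92.5% without it. The simulated noise was smaller than the spread of real genes at a given GC content. The simulation therefore does not show how well the correction works in these data. Python 3.11.15, numpy 2.4.6, pandas 2.3.3 and statsmodels 0.14.6 were used. Depth is unknown, so no interval or detection floor is given.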

Additional observations from a re-analysis of the deposited data

Results flagged for a closer look

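*Cd14* was higher in RBP-J-deficient than in control Ly6Clo monocytes (log2 ratio 0.89) and lower in Ly6Chi monocytes (-0.22), so the single libraries of the subsets moved in opposite directions. The genotype ratio in Ly6Chi minus that in Ly6Clo monocytes was -1.11, and 5.40% of expressed symbols had a lower difference. With 1 library per group this difference between subsets was not tested.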

How the results depend on the processing

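No paired analysis was possible because each group holds 1 library, and no library could be left out for the same reason. For single genes 236 log2 ratios were listed under alternatives, but some of them could not change. The stricter expression filter dropped *Tlr9* and left the ratios of the other genes untouched. Median centring between control subsets subtracted 0. With such fixed values included, 227 of the 236 stayed on the same side of 2-fold, so this count overstates stability. The other 9 belong to *Tlr9* and *Tlr1* (3 and 4 values), *Tlr4* and *Cd14*, and are given in the report except *Tlr9* between control subsets (1.16 with a pseudocount of 0.1). The median of the 10 genes moved by over 0.2 in TPM, to -0.71 in Ly6Clo monocytes and to 0.51 between subsets of RBP-J-deficient mice, and after the GC correction, to -0.81 and 0.57. At the study's fold thresholds (5.7 and 0.2) no member was past in any comparison, so the 3 lower in Ly6Clo monocytes and the 1 higher in each subset comparison became 0. The 3 lower in Ly6Clo monocytes were 4 at 1.5-fold, 4 with a pseudocount of 0.1 and 2 with a pseudocount of 5. A 1.5-fold threshold gave 1 higher in Ly6Clo, 2 lower in Ly6Chi, 2 higher and 1 lower between control subsets and 2 higher between RBP-J-deficient subsets. A pseudocount of 0.1 gave 1 lower in Ly6Chi monocytes, 2 higher between control subsets and 2 higher between RBP-J-deficient subsets. Median centring, TPM and the GC correction each gave 2 higher between RBP-J-deficient subsets, and the GC correction 1 higher in Ly6Clo monocytes. In TPM 3 pathway list genes in place of 6 were higher in Ly6Clo monocytes. This and the GC correction of the pathway lists were chosen after seeing the data. For these changes the cause was not tested. The shares of all expressed symbols at these other settings are not given, so these counts have no background beside them. Since depth is unknown, the values of *Tlr9* carry no error.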

Other observations

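Of 10 sensors of microbes outside the Toll-like receptor family, none was higher by 2-fold and 1 was lower in Ly6Clo monocytes, and 1 was higher and 1 lower in Ly6Chi monocytes of RBP-J-deficient mice, beside 8.97% and 11.1% of all expressed symbols in Ly6Clo and 2.64% and 4.56% in Ly6Chi monocytes. *Mavs*, the mitochondrial adaptor of the RNA sensors Ddx58 and Ifih1, was lower in both subsets, with 6.27 FPKM in control and 1.77 in RBP-J-deficient Ly6Clo monocytes and 10.4 and 4.14 in Ly6Chi monocytes (log2 ratios -1.39 and -1.15, and -1.17 and -1.04 after the GC correction). *Aim2*, a sensor of cytosolic DNA, had 4.54 and 11.7 FPKM in control and RBP-J-deficient Ly6Chi monocytes, a log2 ratio of 1.20, and 6.59 and 7.87 in Ly6Clo monocytes.

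Of 6 receptor genes of the interleukin-1 family that share Myd88, *Il1rap*, the common accessory chain, reached an FPKM of 1, with 9.87 to 11.4 in the 4 libraries. The other 5 were listed under 1, some of them at 0, which was not taken as absence.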
